A study of Homo sapiens with 6 samples.

Results

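The integrated stress response and amino acid synthesis genes are 37 genes chosen by name: the eIF2 alpha kinases, the transcription factor *ATF4* with genes it is known to activate, the serine synthesis enzymes and a group of tRNA synthetases. All 37 were found by NCBI gene ID among the 28395 genes of the count table. RNA was sequenced from NCI-H146 (H146) cells, an established small-cell lung cancer (SCLC) line, on day 2 after transfection by lipofection. Cells received either a negative control siRNA of scrambled sequence (labelled WT) or an siRNA against *KIFC1*, a minus-end-directed kinesin that clusters extra centrosomes (labelled KIFC1 knockdown, here siKIFC1). Each group had 3 libraries labelled biological replicates 1 to 3, and no cells other than this line and no *KIFC1* siRNA other than the one named KD_2 entered the comparison. A single siRNA cannot separate the loss of *KIFC1* from other effects of that siRNA. The labels do not say whether the replicates came from separate cultures, so the p-values measure the spread between these libraries.

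The integrated stress response begins with kinases that phosphorylate the alpha subunit of the initiation factor eIF2: HRI (*EIF2AK1*) responds to heme shortage and mitochondrial stress, PERK (*EIF2AK3*) to misfolded protein in the endoplasmic reticulum, and GCN2 (*EIF2AK4*) to uncharged tRNA. Phosphorylated eIF2 lowers translation of most mRNAs but raises translation of the *ATF4* mRNA, so the first steps leave little trace in mRNA levels. The ATF4 protein then pairs with C/EBP factors on a composite DNA element and activates genes for amino acid import, amino acid synthesis, tRNA charging and feedback control, while its partner CHOP (*DDIT3*) is associated with cell death under prolonged stress.

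The 6 libraries held 15392374 to 17754458 counts each, of which 8.34% to 13.1% fell on mitochondrial genes, with siKIFC1 replicate 2 highest. The counts of the targeted gene *KIFC1* were 14, 4 and 14 in control replicates 1 to 3 against 1, 1 and 0 in siKIFC1 replicates 1 to 3, with no overlap between groups (adjusted p = 0.0738 in edgeR, 0.00459 with replicate as a block). These counts are low, and 100% of the 32-base words within its exons also occur on alternate sequences of GRCh38. All 12 neuroendocrine SCLC markers used, among them *INSM1*, *CHGA* and *SYP*, were above 3 counts in at least 1 library. Their summed level was 2945 to 3378 CPM (counts scaled to library size) with control siRNA and 3027 to 3563 CPM with siKIFC1. The highest mean among them was that of *UCHL1*, at 1261 CPM. Of these markers, the adhesion molecule *NCAM1* was lower without overlap, at 243 ± 17.7 CPM with control siRNA and 182 ± 17.7 CPM with siKIFC1 (SD, n = 3; adjusted p = 0.137 in edgeR, 0.000646 with the block and 0.0259 in DESeq2), and *BEX1* was higher with the block (117 ± 13.5 and 142 ± 20.6 CPM; adjusted p = 0.551 in edgeR, 0.0434 with the block). The summed level of 8 leukocyte markers was 6.32 to 7.86 CPM with control siRNA and 7.47 to 11.8 CPM with siKIFC1, and that of 5 endothelial markers was 4.41 to 5.32 and 6.12 to 6.59 CPM. Of these 2 lists, 1 marker each was at 3 counts or fewer in every library, and the highest mean was that of *VWF*, at 4.42 CPM. The summed level of 7 bronchial epithelial markers was 35.6 to 38.7 CPM with control siRNA and 31.96 to 39.9 CPM with siKIFC1, and that of 7 fibroblast markers, mostly *THY1*, was 86.0 to 96.9 and 93.9 to 125 CPM. The part of these levels in the results was not tested. In bulk RNA, a change in the share of cells and a change in RNA per cell cannot be told apart.

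Knockdown of *KIFC1* was accompanied by small rises in a subset of ATF4-pathway genes, up to 1.66-fold, which edgeR called with the replicate number as a block and did not call in the main test, while the kinases and most tRNA synthetases lay close to their control levels. Of the 37 genes, 36 passed the filter on low counts. In the quasi-likelihood test of edgeR, with Benjamini-Hochberg adjustment over the 14777 genes tested, 0 of the 36 had an adjusted p under 0.05, where 0.325% of all genes tested were higher and 0.372% lower (0.697% in all). The smallest adjusted p among the 36 was 0.0678, that of *SESN2*. At an unadjusted p under 0.05, 9 were higher and 0 lower, against 4.72% and 4.55% of all genes. The Wald test of DESeq2 called 3 of them higher (*SESN2*, *GDF15* and *SLC7A5*), against 0.979% higher and 1.14% lower among the genes it gave an adjusted p, and limma-voom called 0, against 0.298% higher and 0.359% lower.

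Libraries with the same replicate number deviated from their group means together, so the number was also fitted as a block. In that edgeR fit 7 of the 36 genes were higher and 0 lower at an adjusted p under 0.05, where 2.75% of all genes were higher and 3.07% lower. At an unadjusted p under 0.05 with the block, 16 were higher and 1 (*VLDLR*) was lower, against 8.51% and 9.2% of all genes. The 7 were *GDF15*, *SLC7A5*, *SESN2*, *CEBPB*, *MTHFD2*, *DDIT3* and *PCK2*, with fitted rises of 1.27-fold to 1.66-fold. A positive log2 fold change was fitted for 27 of the 36, and for 52.1% of all genes tested. The median log2 fold change of the 36 was 0.13, against 0.01 over all genes tested. Within replicate numbers 1, 2 and 3, the median difference of the 36 in log2 CPM was 0.13, 0.03 and 0.22, so it was smallest in replicate 2, which also held the largest single rises, those of *GDF15* and *CEBPB*. Higher levels in all 3 replicate numbers were seen for 17 of the 36, against 19.5% of all genes, and lower levels in all 3 for 4, against 19.4%. Without overlap between the groups, 9 were higher and 1 (*PHGDH*) lower, against 7.99% and 7.52% of all genes.

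With all libraries used, the calls of *CEBPB*, *MTHFD2*, *DDIT3* and *PCK2* were made only with the block. Those of *SESN2*, *GDF15* and *SLC7A5* were also made by DESeq2 without it. The calls also rest in part on single replicate numbers. Without the block, leaving siKIFC1 replicate 3 out gave 4 members higher in edgeR (*CEBPB*, *SESN2*, *GDF15* and *SLC7A5*) and 0 lower, against 1.3% and 1.83% of all genes, and testing with no filter on low counts gave *GDF15* and *SLC7A5* higher and 0 lower, against 0.521% and 0.619%. With the block, leaving out both libraries of replicate number 1 left 3 higher (*CEBPB*, *GDF15* and *SLC7A5*) and 1 lower (*CARS1*, adjusted p = 0.0261 in edgeR), against 0.954% and 0.975% of all genes. Without number 2, 4 were higher (*SESN2*, *GDF15*, *MTHFD2* and *SLC7A5*) and 0 lower, against 1.43% and 1.8%. Without number 3, 12 were higher and 0 lower, against 6.38% and 7.97%: all 7, with *ATF4*, *TRIB3*, *PSPH*, *SHMT2* and *SLC3A2*. *GDF15* and *SLC7A5* were called in all 3 of these fits. With few libraries left beside the block, the p-values of these fits rest largely on the spread pooled over genes. The adjusted p of *SLC7A5* in edgeR ran from 2.07e-11 to 0.0437 across them.

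**Figure D1:**
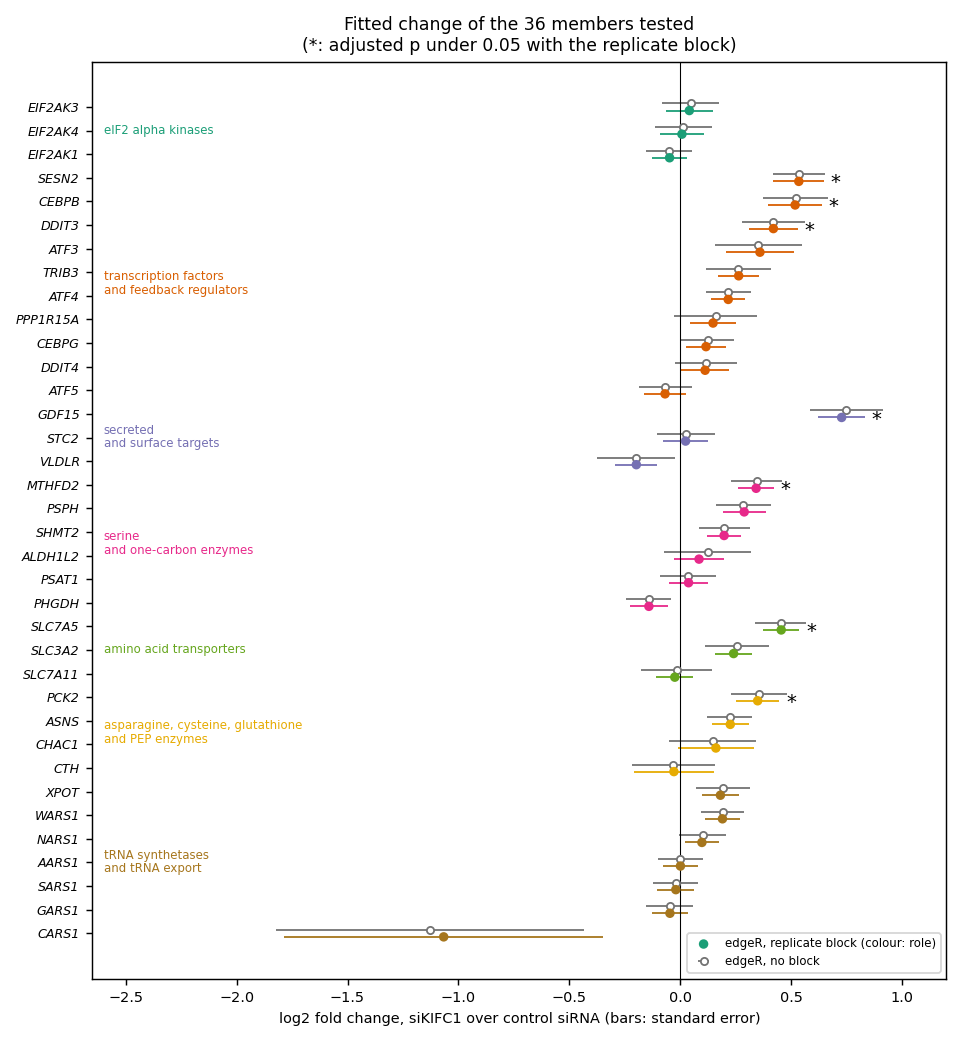
Fitted log2 fold change (x axis, siKIFC1 over control siRNA) of the 36 genes tested, grouped by role, without the replicate block (open circles) and with it (filled circles), with bars for standard errors. The 7 genes marked with an asterisk had an adjusted p under 0.05 with the block and all lie to the right of 0, and *CARS1* has the widest bars.

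The composite element bound by ATF4 with a C/EBP partner was searched for as TGATGNAA, and on the other strand as TTNCATCA, in the RefSeq promoter windows, which run from 250 bases before to 50 after a start site given for each gene. Windows were found for 31 of the 37 genes. A match occurred in 7 of them (22.6%), against 1.65% of 11548 windows of the genes tested and 3.67% of all 27305 windows. The 37 genes include known ATF4 targets chosen by name, so this difference was not tested. These 7 stretches are shown because they hold the sequence searched for, and binding of ATF4 to them was not measured. Each is written in the direction of its gene, with the match in capitals.
ATF3: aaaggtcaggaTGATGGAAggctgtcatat
SLC3A2: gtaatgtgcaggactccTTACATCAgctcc
ASNS: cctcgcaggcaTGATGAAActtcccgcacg
CHAC1: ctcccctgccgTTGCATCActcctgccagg
AARS1: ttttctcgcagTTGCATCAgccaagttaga
CARS1: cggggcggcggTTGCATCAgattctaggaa
NARS1: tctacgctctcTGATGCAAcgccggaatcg

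For *ASNS* and *SLC3A2* that start site lies inside the gene, 56033 and 25590 bases from its outermost RefSeq start, whereas for the other 29 windows it lies within 1000 bases of it. The *ASNS* stretch lies at chr7:97872458-97872487 (GRCh38.p14, minus strand), with the match starting 68 bases before the start site of its window. That of *CHAC1* lies at chr15:40953251-40953280 (plus strand), 209 bases before the start, and that of *ATF3* at chr1:212565205-212565234 (plus strand), 191 bases before it. The stretch of *AARS1* is at chr16:70289675-70289704 (minus strand), 187 bases before the start. Those of *CARS1* (chr11:3057407-3057436, minus strand) and *NARS1* (chr18:57621804-57621833, minus strand) span or follow the start site, as does that of *SLC3A2* (chr11:62881719-62881748, plus strand). The same core TTGCATCA, or its complement TGATGCAA, occurred in *CHAC1*, *AARS1*, *CARS1* and *NARS1*. None of the 7 genes called with the block had a match in this window, although all 7 had a window. The median log2 fold change was 0.15 for the 7 genes with a match and 0.14 for the 24 tested genes with a window and no match. These are descriptions of short windows, and a window with no match says nothing of ATF4 at that gene.

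The mRNA levels of the eIF2 alpha kinases differed little between the groups. *EIF2AK1*, the most abundant of them, was at 235, 205 and 203 CPM in control replicates 1, 2 and 3 and at 215, 199 and 206 CPM in siKIFC1 replicates 1, 2 and 3. *EIF2AK3* was at 28.1, 28.6 and 29.3 CPM with control siRNA and 29.4, 25.6 and 33.98 CPM with siKIFC1. *EIF2AK4* was at 38.9, 34.4 and 37.1 CPM with control siRNA and 37.99, 31.4 and 42.01 CPM with siKIFC1. The groups overlapped for all 3 kinases, and siKIFC1 replicate 3 was the highest and siKIFC1 replicate 2 the lowest siKIFC1 library for *EIF2AK3* and *EIF2AK4*. Fitted log2 fold changes were -0.05 (standard error, SE, 0.10) for *EIF2AK1*, 0.05 (0.13) for *EIF2AK3* and 0.01 (0.13) for *EIF2AK4*, with adjusted p of 0.944, 0.962 and 0.992 in edgeR. The sign of each changed when 1 library was left out. Kinase activity, which is set by phosphorylation, was not measured.

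Among the transcription factors and feedback regulators, 9 of the 10 tested had a positive log2 fold change (median 0.24), against 52.1% of all genes tested. With the replicate block 3 of them rose, against 2.75% of all genes, and without it edgeR called 0. *ATF4* itself was at 240.1, 237 and 212 CPM in control replicates 1 to 3 and at 284, 267 and 250.1 CPM in siKIFC1 replicates 1 to 3, without overlap. Its log2 fold change was 0.22 (SE 0.10), with an adjusted p of 0.554 in edgeR and 0.102 with the block, so the difference did not pass. The difference in log2 CPM was 0.24, 0.17 and 0.24 within replicate numbers 1, 2 and 3. Of the 32-base words of its transcript, 52.4% also occur in transcripts of other genes, 35.6% in the pseudogene *ATF4P3*, so its count is uncertain where the counting could split reads among them.

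*DDIT3* encodes CHOP, a C/EBP family member that ATF4 induces. It was at 21.97, 22.5 and 17.6 CPM with control siRNA and at 26.6, 31.7 and 24.8 CPM with siKIFC1. Every siKIFC1 library lay above every control library, and in both groups replicate 2 was the highest and replicate 3 the lowest. The log2 fold change was 0.42 (SE 0.14, adjusted p = 0.318 in edgeR), and with the replicate block it was 0.42 (SE 0.11, adjusted p = 0.0171 in edgeR).

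*CEBPB*, a partner of ATF4 on the composite element, was at 17.8, 15.96 and 13.8 CPM with control siRNA and at 20.9, 26.3 and 20.9 CPM with siKIFC1. The groups did not overlap, siKIFC1 replicate 2 was the highest library, and the log2 difference was 0.23, 0.72 and 0.60 within replicate numbers 1, 2 and 3. The log2 fold change was 0.52 (SE 0.15, adjusted p = 0.186 in edgeR), with an adjusted p of 0.00685 in edgeR with the block. *CEBPG*, the other listed C/EBP factor and also a dimer partner of ATF4, had a log2 fold change of 0.12 (SE 0.12, adjusted p = 0.8504 in edgeR), and its groups overlapped.

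*SESN2*, a leucine-sensing sestrin that restrains mTORC1, had the tightest libraries of the 7 genes. It was at 15.4, 15.5 and 15.8 CPM with control siRNA and at 22.8, 23.3 and 21.7 CPM with siKIFC1, that is 15.6 ± 0.2198 and 22.6 ± 0.804 CPM (SD, n = 3). The gap between the groups was wider than the range within either, and the log2 difference was 0.56, 0.58 and 0.45 within replicate numbers 1, 2 and 3. Its log2 fold change of 0.54 (SE 0.12) had an adjusted p of 0.0678 in edgeR, 0.00337 with the replicate block and 0.0221 in DESeq2. *SESN2* lies on chromosome 1 from 28259518 to 28282491 (GRCh38.p14).

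*ATF3*, *TRIB3*, *PPP1R15A* and *DDIT4* did not pass the test in either fit. *ATF3*, an early stress factor of the same bZIP family, was higher in all 3 replicate numbers (0.27, 0.29 and 0.51 in log2 CPM) at low levels of 8.58, 7.200 and 5.61 CPM with control siRNA and 10.4, 8.83 and 8.02 CPM with siKIFC1. *TRIB3*, a pseudokinase that feeds back on ATF4, differed by 0.25, 0.25 and 0.28 in log2 CPM within the replicate numbers, the most even set of differences in this role, but replicate 3 was low in both groups and the groups overlapped. Its adjusted p was 0.671 in edgeR and 0.104 with the block. *PPP1R15A* (GADD34, the phosphatase subunit that reverses eIF2 phosphorylation) had a log2 fold change of 0.16 (SE 0.19) and *DDIT4*, an mTORC1 inhibitor, one of 0.12 (0.14). *ATF5*, a mitochondrial stress factor, had a log2 fold change of -0.07 (0.12) and was lower in all 3 replicate numbers. *NUPR1*, a small stress-induced chromatin protein, did not pass the filter and was not tested, its counts being 1, 3 and 1 in the control libraries against 4, 8 and 2 in the siKIFC1 libraries.

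**Figure D2:**
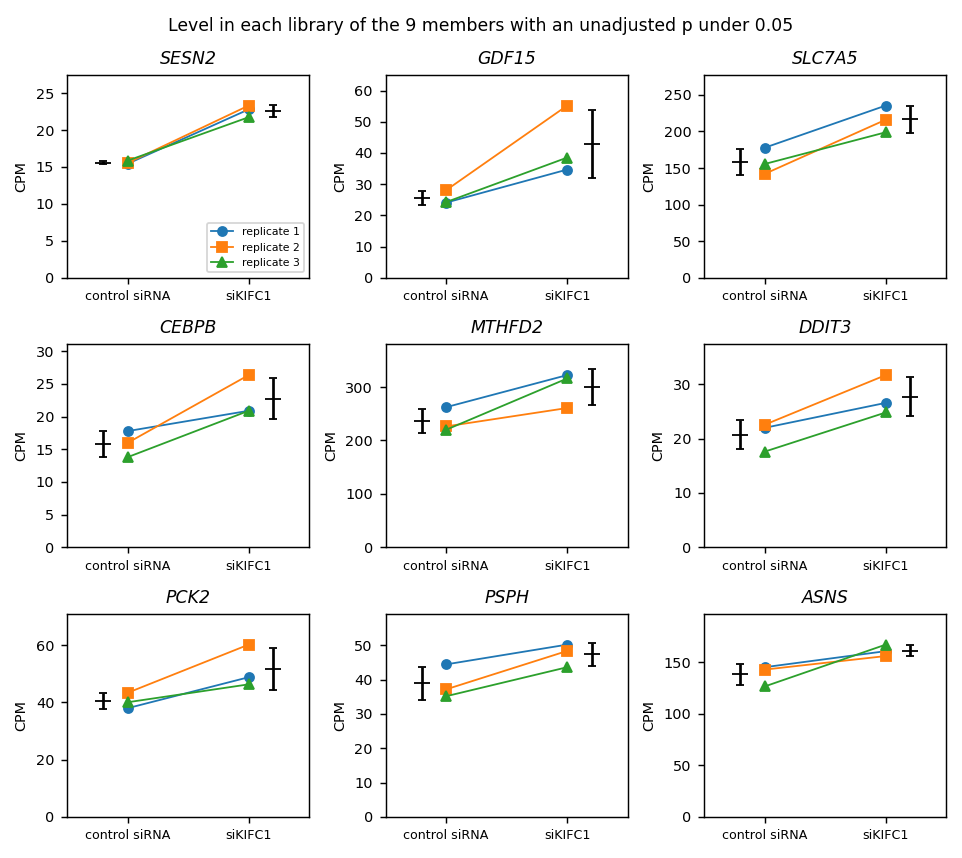
Level in CPM (y axis, from 0) of the 9 genes with an unadjusted p under 0.05 in edgeR, in each control siRNA and siKIFC1 library, with lines joining libraries of the same replicate number and black bars for the mean and SD (n = 3). Every line rises, and the groups are apart for all but *MTHFD2* and *PSPH*.

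*GDF15*, a secreted TGF-beta family protein induced by ATF4, CHOP and p53, had the largest fitted rise of the 36 genes tested. It was at 24.1, 28.05 and 24.2 CPM in control replicates 1 to 3 and at 34.7, 55.2 and 38.5 CPM in siKIFC1 replicates 1 to 3. The groups did not overlap, and siKIFC1 replicate 2 stood well above the other siKIFC1 libraries. That library also had the highest mitochondrial share of counts, 13.1%, and the part of this share in the rise was not tested. The log2 fold change was 0.75 (SE 0.17, 1.68-fold), with an adjusted p of 0.0692 in edgeR and 0.00256 in DESeq2. With the replicate block it was 0.73 (SE 0.11, 1.66-fold), with an adjusted p of 3.23e-05 in edgeR, and its call was kept when both libraries of any 1 replicate number were left out (adjusted p up to 0.00239 in edgeR). *GDF15* lies on chromosome 19 from 18386158 to 18389176 (GRCh38.p14). *STC2*, a secreted glycoprotein induced by ATF4, had a log2 fold change of 0.03 (SE 0.13), and *VLDLR*, a lipoprotein receptor, one of -0.20 (0.18). *VLDLR* was lower in all 3 replicate numbers (-0.17, -0.23 and -0.19) and did not pass either fit (adjusted p = 0.829 in edgeR, 0.264 with the block). Its level differed more between replicate numbers than between groups, at 43.9, 59.4 and 67.9 CPM with control siRNA and 39.02, 50.5 and 59.5 CPM with siKIFC1.

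The serine and one-carbon enzymes did not move as one. *MTHFD2*, the mitochondrial folate enzyme, rose with the block. It was at 262, 226 and 220.1 CPM with control siRNA and at 323, 261 and 316 CPM with siKIFC1. Control replicate 1 and siKIFC1 replicate 2 overlapped, but each siKIFC1 library was above the control library of its number, by 0.30, 0.20 and 0.52 in log2 CPM. The log2 fold change was 0.34 (SE 0.12, adjusted p = 0.317 in edgeR), and the adjusted p was 0.00713 in edgeR with the block.

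*PSPH*, which makes serine from phosphoserine, was at 44.5, 37.2 and 35.2 CPM with control siRNA and at 50.3, 48.4 and 43.7 CPM with siKIFC1. Control replicate 1 overlapped with siKIFC1 replicate 3, and each pair of the same number was higher with siKIFC1. Its log2 fold change was 0.28 (SE 0.12), with an unadjusted p of 0.0398 and an adjusted p of 0.4997 in edgeR, and 0.0825 with the block. *PHGDH*, the first enzyme of serine synthesis, was at 138, 155 and 148 CPM with control siRNA and 138, 126 and 136 CPM with siKIFC1. Its groups were barely apart, at replicate 1 of each, and its log2 fold change of -0.14 (SE 0.10) had an adjusted p of 0.772 in edgeR. *PSAT1*, the transaminase between them, had a log2 fold change of 0.03 (0.13). *SHMT2*, which passes the carbon of serine to folate in mitochondria, had one of 0.20 (0.12), higher in all 3 replicate numbers, and *ALDH1L2*, a mitochondrial folate dehydrogenase, one of 0.12 (0.20). The difference of *ALDH1L2* was -0.08, -0.18 and 0.48 within the replicate numbers, positive in replicate 3 alone.

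Of the amino acid transporter genes, *SLC7A5* (LAT1, the importer of leucine and other large neutral amino acids) rose with the replicate block and *SLC7A11* did not. *SLC7A5* was at 178, 142 and 155 CPM with control siRNA and at 235, 216 and 199 CPM with siKIFC1. The lowest siKIFC1 library was above the highest control library, and the difference was 0.41, 0.61 and 0.36 in log2 CPM within replicate numbers 1, 2 and 3. The log2 fold change was 0.45 (SE 0.12, 1.37-fold), with an adjusted p of 0.128 in edgeR, 0.000454 with the block and 0.0248 in DESeq2. Its call with the block was kept without any 1 replicate number (adjusted p up to 0.0437 in edgeR). *SLC7A5* lies on chromosome 16 from 87830023 to 87869507 (GRCh38.p14). The gene of its heavy chain, *SLC3A2* (4F2hc, shared with *SLC7A11*) was at 168, 176 and 143 CPM with control siRNA and 193, 232 and 155 CPM with siKIFC1. It was higher in all 3 replicate numbers but with overlap, and its log2 fold change of 0.25 (SE 0.14) had an adjusted p of 0.678 in edgeR and 0.0903 with the block. *SLC7A11* (xCT, the cystine importer) had a log2 fold change of -0.02 (0.16) and followed the replicate number, at 108, 124 and 148 CPM with control siRNA and 101, 121 and 154 CPM with siKIFC1.

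**Figure D3:**
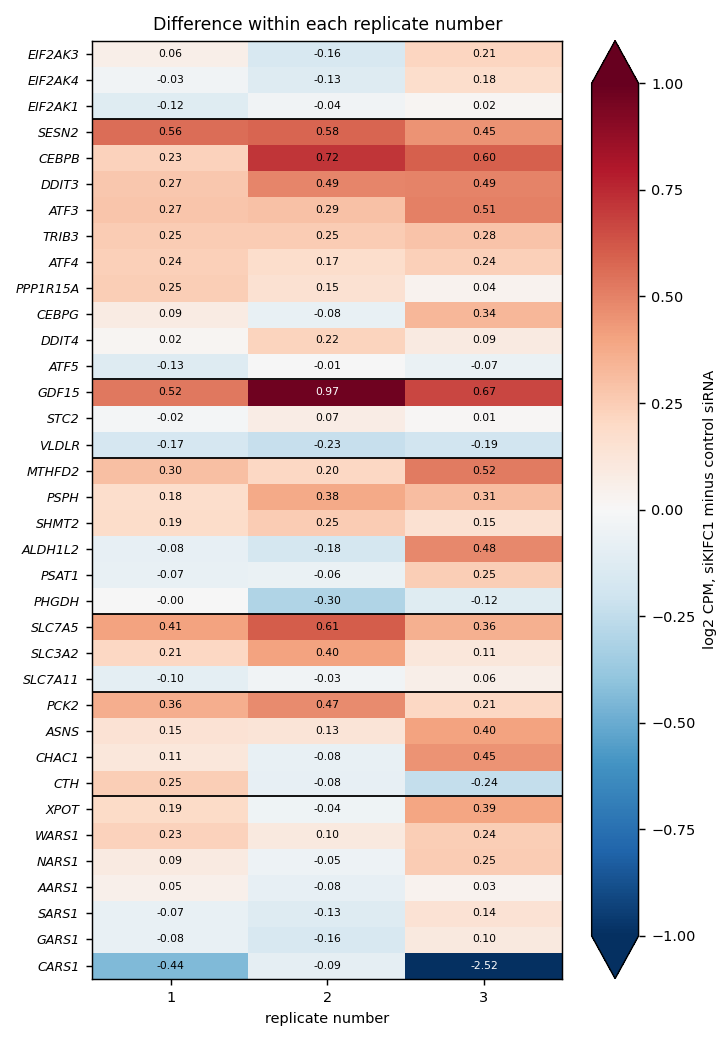
Difference in log2 CPM (colour and printed value, siKIFC1 minus control siRNA) of the 36 genes tested within each replicate number (x axis), with black lines between roles and colours saturated beyond 1. The 7 genes called with the block are positive in all 3 columns, and the median over the 36 was 0.13, 0.03 and 0.22.

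*ASNS*, asparagine synthetase and the reference gene of the amino acid response, was at 145, 143 and 127 CPM with control siRNA and at 161, 156 and 167 CPM with siKIFC1. The groups did not overlap, and the widest difference within a replicate number was that of replicate 3. Its log2 fold change of 0.22 (SE 0.10, 1.17-fold) had an unadjusted p of 0.0494 and an adjusted p of 0.536 in edgeR, and 0.128 with the block. In GENCODE 44, 99.5% of the words of its transcript also occur in a second, unnamed gene model, and whether the authors counted against such a model is not given in the sources used here. *PCK2*, the mitochondrial PEP carboxykinase, rose with the block. It was at 37.99, 43.4 and 40.1 CPM with control siRNA and at 48.9, 60.3 and 46.4 CPM with siKIFC1. Those groups did not overlap, replicate 2 was the highest library of each, and the log2 fold change was 0.36 (SE 0.13, adjusted p = 0.345 in edgeR and 0.0279 with the block). *CHAC1*, which degrades glutathione and is among the most inducible ATF4 targets, was at 6.602, 7.58 and 4.901 CPM with control siRNA and 7.15, 7.18 and 6.74 CPM with siKIFC1. The siKIFC1 values lay within the control range, with a log2 fold change of 0.15 (SE 0.20). *CTH*, which makes cysteine from cystathionine, had a log2 fold change of -0.03 (0.19) and differed in sign between replicate numbers (0.25, -0.08 and -0.24).

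Of the 6 tRNA synthetases and the tRNA export factor *XPOT*, 0 had an adjusted p under 0.05 in edgeR with or without the block. The shares of all genes tested were 5.83% and 0.697%. Without the block 0 had an unadjusted p under 0.05, where 9.26% of all genes tested had one. With the block, *WARS1* and *XPOT* were higher at an unadjusted p under 0.05, against 8.51% of all genes. *WARS1* (tryptophan) was at 206, 215 and 215 CPM with control siRNA and at 241, 231 and 255 CPM with siKIFC1. Its groups did not overlap, and its log2 fold change was 0.19 (SE 0.10, adjusted p = 0.6004 in edgeR and 0.176 with the block). *XPOT* had a log2 fold change of 0.19 (0.12) and *NARS1* (asparagine) one of 0.10 (0.11), with siKIFC1 replicate 2 below the controls for both. *AARS1* (alanine), *SARS1* (serine) and *GARS1* (glycine) lay between -0.05 and 0.00. The counts of *CARS1* (cysteine) were 231, 64 and 360 in control replicates 1 to 3 against 159, 57 and 54 in siKIFC1 replicates 1 to 3. Replicate 2 was low in both groups and siKIFC1 replicate 3 was as low, and its log2 fold change of -1.13 (SE 0.69) had an adjusted p of 0.743 in edgeR. It moved to -1.83 without siKIFC1 replicate 1, to -0.64 without control replicate 3, and to -0.33 with the block and without replicate number 3. Of the 32-base words that lie within its exons, 98.4% also occur on alternate sequences of GRCh38, the highest share of the 37 genes, where *NUPR1* followed with 14.8%. Whether reads of *CARS1* were lost to those sequences was not tested.

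Compared per length, as CPM per kilobase of the GENCODE 44 canonical transcript (RPKM), the levels of the 36 genes with control siRNA ran from 2.67 ± 0.324 for *CTH* to 162 ± 10.7 for *ATF4* (SD, n = 3), with a median of 22.1. *ATF4* was followed by *NARS1* at 137 ± 5.35 and *SHMT2* at 101 ± 9.52 RPKM, and each of these steps was wider than the SDs. The next 6 genes in falling order, *SLC3A2*, *SARS1*, *WARS1*, *PHGDH*, *GARS1* and *ASNS*, ran from 85.99 ± 9.01 to 57.97 ± 4.27, with neighbours among the first 5 within their SDs. At the low end, *ATF3* (3.68 ± 0.767), *CHAC1* (4.18 ± 0.891), *SESN2* (4.51 ± 0.0635), *CARS1* (4.56 ± 2.88) and *ALDH1L2* (4.62 ± 0.384) differed from the next of these 5 by no more than the larger SD of the pair. The synthetases were all above the median except *CARS1*. The 7 genes called with the block lay across this range, from *SESN2* to *MTHFD2* (53.7 ± 5.18), and none was among the 9 most abundant. RPKM here assumes 1 transcript per gene.

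**Figure D4:**
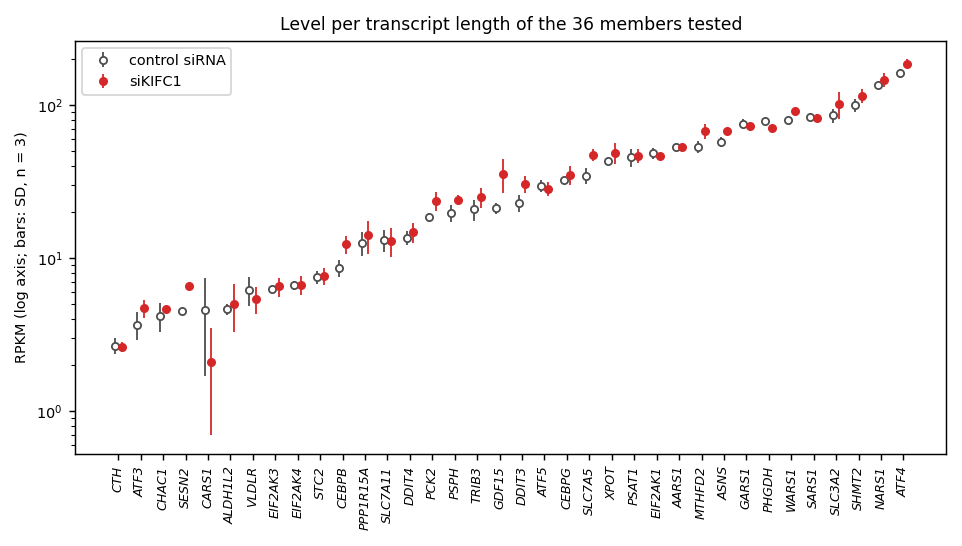
Level in RPKM (y axis, log scale) of the 36 genes tested, ordered by their mean with control siRNA (open circles) beside siKIFC1 (filled circles), with bars for SD (n = 3). The order runs from *CTH* at 2.67 to *ATF4* at 162 RPKM, and *GDF15* shows the widest step between the groups among the genes called with the block.

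Other genes of the pathway were read from 6 further lists. Of 18 other genes of eIF2 control (eIF2 and eIF2B subunits, *EIF2AK2*, phosphatase subunits and others), 12 had a positive log2 fold change (median 0.02), against 52.1% of all genes tested. In edgeR 0 were called with or without the block, against 5.83% and 0.697% of all genes tested. Of 32 other reported ATF4 targets tested, 23 had a positive log2 fold change (median 0.10), against 52.1% of all genes tested. In edgeR 0 were called and 4 had an unadjusted p under 0.05, all higher, against 4.72% of all genes. With the block, *JDP2* and *HERPUD1* were higher, a share called of 6.25%, near the 5.83% of all genes tested. The counts of *JDP2*, a bZIP repressor of the AP-1 family, were 3, 5 and 7 in the control libraries against 20, 19 and 14 in the siKIFC1 libraries (adjusted p = 0.0629 in edgeR, 0.00853 with the block), a rise on few reads. *HERPUD1*, of ER-associated degradation, went from 48.98 ± 5.801 to 61.2 ± 2.35 CPM (SD, n = 3; adjusted p = 0.0374 in edgeR with the block).

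Of 26 other amino acid synthesis enzymes tested, 19 had a positive log2 fold change (median 0.09), against 52.1% of all genes tested. *ASS1* and *OAT* were higher with the block, a share called of 7.69%, against 5.83% of all genes tested. *ASS1* makes argininosuccinate for arginine synthesis and went from 33.1 ± 1.92 to 43.4 ± 5.59 CPM (SD, n = 3; adjusted p = 0.257 in edgeR, 0.0147 with the block). *OAT*, ornithine aminotransferase, went from 179 ± 11.5 to 216 ± 10.4 CPM (SD, n = 3; adjusted p = 0.0403 in edgeR with the block). The 14 other cytosolic tRNA synthetases had 12 positive log2 fold changes, against 52.1% of all genes tested, within a narrow range (-0.05 to 0.21, median 0.09). With or without the block 0 were called, against 5.83% and 0.697% of all genes tested. The 16 mitochondrial synthetases were split, 8 positive and 8 negative (median 0.00), and 12.5% were called with the block, against 5.83% of all genes. Of those, *HARS2* was lower with the block, from 34.2 ± 1.75 to 22.9 ± 1.88 CPM (SD, n = 3). Its adjusted p was 0.0513 in edgeR, 0.000454 with the block and 0.00353 in DESeq2. *CARS2* was higher with the block, from 67.4 ± 3.16 to 86.2 ± 8.44 CPM (adjusted p = 0.0194 in edgeR with the block, 0.154 in DESeq2).

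The endoplasmic reticulum arms of the unfolded protein response, run by ATF6 and XBP1, were read from 16 chaperone and ERAD genes such as *HSPA5*, *HSP90B1* and *PDIA4*. Of these, 12 had a positive log2 fold change (median 0.03), against 52.1% of all genes tested. *DNAJB9* was the 1 gene called with the block, a share called of 6.25%, near the 5.83% of all genes tested. It went from 25.2 ± 3.13 to 37.7 ± 7.23 CPM (SD, n = 3), with an adjusted p of 0.151 in edgeR, 0.000426 with the block and 0.0362 in DESeq2. Over all 122 genes tested in these lists, 86 had a positive log2 fold change, against 52.1% of all genes tested. With the block 6 were higher and 1 lower, against 2.75% and 3.07% of all genes tested. The share called was 5.74%, near the 5.83% of all genes tested, while that of the 36 members was 19.4%; the members were named with earlier results of these data known, so this difference was not tested.

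**Figure D5:**
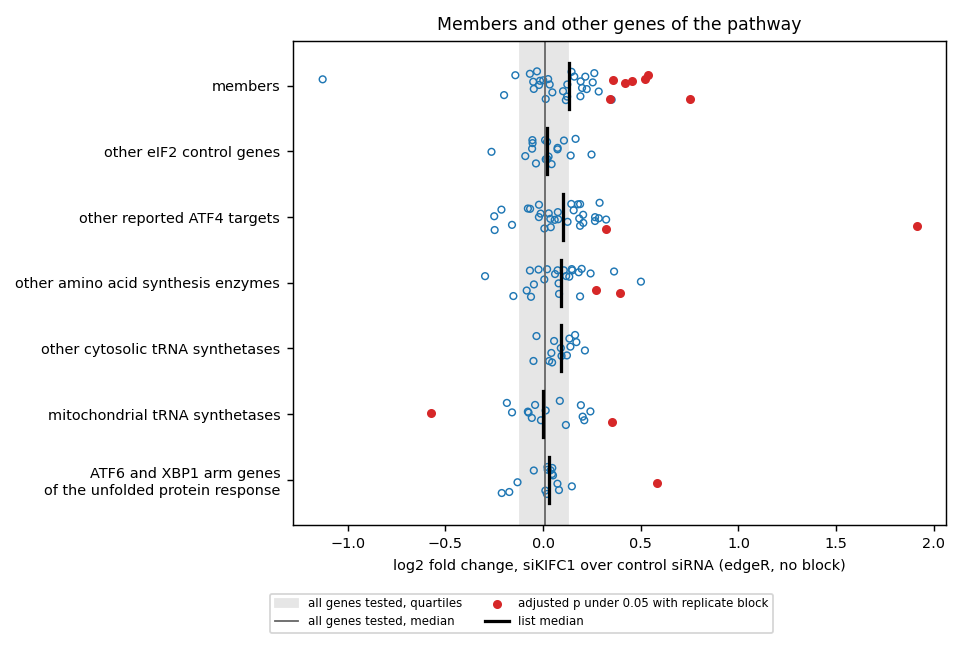
Log2 fold change (x axis, siKIFC1 over control siRNA, edgeR without the block) of the members and of 6 further lists (y axis), with black ticks for list medians, red points for genes with an adjusted p under 0.05 with the replicate block, and a grey band for the quartiles of all genes tested. The members reach a median of 0.13, against 0.10, 0.09 and 0.09 for other ATF4 targets, amino acid enzymes and cytosolic synthetases.

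Words of the annotated 3' UTR that earlier work on these same libraries found among genes that moved were also counted. GCAACC, the word found among rising genes, occurred in 4 of the 7 genes called with the block: once in *CEBPB*, *SESN2* and *SLC7A5* and 2 times in *MTHFD2*. Their 3' UTRs were 597, 1689, 2947 and 3323 bases long, while those of *GDF15*, *DDIT3* and *PCK2*, with 0 copies, had 241, 216 and 161 bases. The word also occurred in 5 of the 29 other members and in 23.2% of genes tested, counting 3' UTRs of at least 50 bases. GAGATCT, the word found among falling genes, occurred in *VLDLR*, *SLC7A11* and *SARS1* and in 0 of the 7 called genes, which all rose, against 8.96% of genes tested. Both words and the called genes come from the same libraries and length was not matched, so nothing is read from the counts of either word.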

How the data were processed

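The authors aligned reads to GRCh38 with HISAT2 2.2.1 and counted them per gene with featureCounts 2.0.8, and the deposited values are raw counts for 28395 NCBI gene IDs, 27745 of which were matched to RefSeq symbols (GRCh38.p14). The strand setting and the treatment of multi-mapping reads are not given in the sources used here. The main test was edgeR (version 4.0.16, R 4.3.3) after filterByExpr with *KIFC1* retained, with TMM scaling and robust dispersion, adjusted over 14777 genes at a threshold of 0.05. CPM are counts scaled by library size after TMM, and log2 CPM carries a prior count of 2. The standard error is the absolute log2 fold change over the square root of F. The biological coefficient of variation was 13.1%.

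Same-numbered libraries correlated after removal of group means at 0.488, 0.386 and 0.454 across 11803 genes, and others at -0.424 to -0.0310, so the replicate block was read beside the main test. Removal of group means makes the deviations in a group sum to 0, so the negative values are not separate evidence of pairing. The number itself is the only label of pairing, and genes are not independent replicates. The members and lists were chosen with earlier results of these data known, and 1 further neuroendocrine marker is not reported here. Values in every library are given for members called in either fit, with an unadjusted p under 0.05, for the kinases and for *ATF4*, *DDIT3* and *ASNS*, and other genes so detailed were added after their values were seen.

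On data simulated for this comparison, the test called 97% of 200 genes shifted by a log2 value of 1 among 14640, and 13.5% (22.5% with the block) of 200 shifted by 0.5 among 14641. The shifted genes were drawn only from genes above a minimum mean count, so these shares do not cover genes with few reads. Unchanged genes called were 11 without the block and 2 with it at the shift of 1, and 0 and 2 at 0.5. Every gene was given the same coefficient of variation of 13.1%, from the fit without the block. For the block a replicate effect was added on top of that spread, so these shares need not hold for the real libraries. Alternatives used DESeq2 1.42.0, limma 3.58.1, other scalings and filters, and each library left out. Both libraries of 1 replicate number were left out as an alternative chosen after the data were seen. Words of 32 bases were compared with GENCODE 44 transcripts and 261 alternate sequences.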

Additional observations from a re-analysis of the deposited data

How the results depend on the processing

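Over all genes, 103 were called in edgeR, against 265 with no filter on low counts, 270 in DESeq2, 861 with the replicate block, 24 to 468 with 1 library left out, and 287, 479 and 2123 with the block and without replicate numbers 1, 2 and 3. Of the members, 0 were called higher, against 2 with no filter, 3 in DESeq2, 7 with the replicate block, 0 to 4 with 1 library left out, and 3, 4 and 12 with the block and without numbers 1, 2 and 3; 0 were called lower, against 1 without number 1. The cause of these moves was not tested. The median log2 fold change of the members stayed positive in all alternatives, from 0.08 to 0.17. With all libraries, the replicate block changed no call among the members beyond these 7. Other scalings, a minimum of 10 counts in every library and limma-voom called 0 members.

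Signs turned only for log2 fold changes of members that were not called. With *AARS1* at 0.00, DESeq2 size factors gave -0.0033, scaling by library size alone -0.014, no filter -0.0071 and DESeq2 -0.0033. With 1 library left out, log2 fold changes ran from -0.087 to 0.021 for *EIF2AK1*, -0.056 to 0.13 for *STC2*, -0.049 to 0.033 for *AARS1*, -0.11 to 0.012 for *GARS1*, -0.069 to 0.021 for *SARS1*, -0.085 to 0.11 for *EIF2AK4*, -0.039 to 0.15 for *PSAT1*, -0.19 to 0.12 for *SLC7A11*, -0.11 to 0.068 for *CTH*, -0.014 to 0.29 for *CHAC1*, -0.0058 to 0.21 for *DDIT4*, -0.063 to 0.14 for *EIF2AK3*, -0.14 to 0.0062 for *ATF5* and -0.19 to 0.29 for *ALDH1L2*. With the block, without replicate number 1 they were 0.012 for *SLC7A11*, -0.025 for *AARS1*, 0.0056 for *SARS1*. With the block, without replicate number 2 they were -0.0071 for *STC2*, 0.0036 for *GARS1*, 0.029 for *SARS1*. With the block, without replicate number 3 they were -0.054 for *EIF2AK3*, -0.085 for *EIF2AK4*, -0.073 for *PSAT1*, -0.13 for *ALDH1L2*, 0.082 for *CTH*, -0.020 for *AARS1*. Counts limit *JDP2*, *KIFC1* and *NUPR1*, for which few reads set the precision.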
